A study of Homo sapiens with 8 samples.

Results

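The histone genes of the human genome were examined for promoter binding of PHF20 and PHF20L1. Members were all protein-coding genes of the GENCODE annotation whose symbol begins with the name of a histone family (H1, H2A, H2B, H3 or H4), which gave 93 of 20033 nuclear protein-coding genes. Of these, 66 lay in the histone gene clusters of chromosomes 6 (55 genes) and 1 (11 genes), and 27 lay alone or in groups too small to count as a cluster. The study mapped both proteins by ChIP-Seq, in which an antibody pulls down the DNA bound by a protein and the recovered fragments are sequenced. All 8 libraries came from U2OS, a human osteosarcoma cell line, made to express PHF20 or PHF20L1 ectopically with a hemagglutinin (HA) peptide tag, so that the tagged protein was added to the cells' own. For PHF20, whose tag was N-terminal, 2 HA ChIP libraries and 1 input library were used. For PHF20L1 there were 3 HA ChIP libraries, 1 with an N-terminal and 2 with a C-terminal tag, and 2 input libraries, 1 for each tag. The input is chromatin without immunoprecipitation and served as the control against which peaks were called. The final list held 4147 peaks for PHF20 and 723 for PHF20L1. Each list combines its replicates and holds positions alone, without a height, so no spread between replicates exists for any value here, the depth behind a peak is unknown, and intervals cover counting error only. For a gene without a peak, it is known that no call was made at the thresholds used, not that the protein never bound there.

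Histones package DNA into nucleosomes, with a core of H2A, H2B, H3 and H4 and a linker histone H1 at the entry of the DNA. Most of the core and linker histones of a dividing cell come from replication-dependent genes, which sit close together in clusters, are transcribed in S phase and yield mRNAs that end in a stem-loop without a poly(A) tail. Replacement variants such as H3.3, H2A.Z and H2A.X are encoded by single genes that are transcribed through the cell cycle, and further variants belong to the germline. PHF20 and PHF20L1 are readers of methylated lysine found in the nonspecific lethal (NSL) complex, which contains the histone acetyltransferase MOF and occupies promoters of housekeeping genes. The question asked here was whether the genes that encode histones themselves are among the promoters at which these proteins were called.

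PHF20 peaks were present at few histone genes. A gene was called bound when a peak overlapped its promoter window, which began 1000 bp before and ended 500 bp after the transcription start site (TSS) of any of its transcripts. By this rule 8 of the 93 histone genes were bound by PHF20 (8.6%, Wilson 95% interval 4.42% to 16.1%), whereas 20.7% of all protein-coding genes were. In the clusters 5 of 66 genes were bound (7.58%, interval 3.28% to 16.5%), and elsewhere 3 of 27 were (11.1%, interval 3.85% to 28.1%). The intervals for clustered and single genes overlapped widely, so a difference between these classes was not detectable with so few genes. On chromosome 6, 3 of 55 genes had a peak (5.45%, interval 1.87% to 14.9%), and on chromosome 1 it was 2 of 11 (18.2%, interval 5.14% to 47.7%). Since neighbouring histone genes share promoter windows, the 66 clustered genes were also counted as 49 merged promoter regions, of which 4 held a PHF20 peak (8.16%). Counted this way, 7 of 77 histone regions (9.09%) and 3379 of 55180 regions of all protein-coding genes (6.12%) held one, so the histone share was not below the background on this count. The 2 backgrounds differ because merged regions also count every alternative TSS of a gene, bound or not, and most histone genes have few. With the canonical TSS of each gene alone, 7 of 93 histone genes (7.53%) and 19.1% of all protein-coding genes were bound. PHF20L1 was called at 0 of the 93 histone genes, beside 3.82% of all protein-coding genes. A count of 0 allows a share of up to 3.23% by the limit of 3 counts, or 3.97% by the Wilson interval, so a share below the background was not shown.

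**Figure D1:**
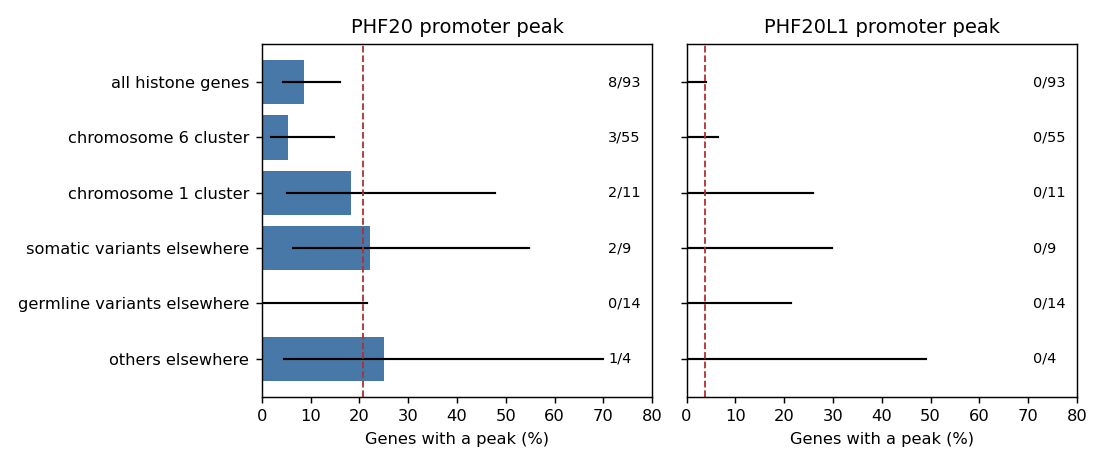
Share of genes with a PHF20 (left) or PHF20L1 (right) promoter peak, in percent, for all histone genes and for each class, with counts at the right of each panel. Horizontal lines are Wilson 95% intervals and dashed lines mark the share over all protein-coding genes (20.7% and 3.82%); the chromosome 6 cluster lies lowest among the classes with a PHF20 peak, at 5.45%.

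By family, PHF20 was called at 2 of 10 H1 genes, 1 of 27 H2A genes, 1 of 23 H2B genes, 1 of 18 H3 genes and 3 of 15 H4 genes. The share was 20% for H1 (interval 5.67% to 51%) and for H4 (7.05% to 45.2%), near the 20.7% of all protein-coding genes. It was 3.7% for H2A (0.657% to 18.3%), 4.35% for H2B (0.772% to 21%) and 5.56% for H3 (0.988% to 25.8%). All these intervals overlapped, so a difference between families was not distinguishable. The H2A and H2B genes, which supply the dimers flanking the H3-H4 tetramer, made up 50 of the 93 members and were bound through a single shared peak. The remaining 6 bound genes had separate peaks, of which those at H4C8 and H3-3B also overlapped the promoter of another gene.

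The promoters on which these counts rest are shown here as the DNA just upstream of the outermost annotated TSS, read from hg38 and written 5′ to 3′. The first sequence is the whole interval between the divergent H2BC21 and H2AC20 genes, which is the bound H2A-H2B promoter, and the second is the matching interval of an unbound pair, H2BC8 and H2AC8. H4C11 is a bound H4 promoter of chromosome 6. H4C16 and H1-10 are bound single genes, and H2AZ1 is an unbound replacement variant. The first 3 are the plus strand at chr1:149886683-149886917, chr6:26216689-26216920 and chr6:27823892-27824091. The last 3 are the minus strand at chr12:14771132-14771331, chr3:129316287-129316486 and chr4:99950356-99950555. Capitals mark 3 motifs on either strand, the TATA box TATAAA, the CCAAT box with its CCAAT, and the octamer written ATTTGCAT.
H2BC21-H2AC20: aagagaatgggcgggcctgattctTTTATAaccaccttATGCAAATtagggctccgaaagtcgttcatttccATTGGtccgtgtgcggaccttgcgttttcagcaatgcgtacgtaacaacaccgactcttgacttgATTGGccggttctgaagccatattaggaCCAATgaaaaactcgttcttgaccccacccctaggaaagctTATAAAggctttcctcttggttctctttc
H2BC8-H2AC8: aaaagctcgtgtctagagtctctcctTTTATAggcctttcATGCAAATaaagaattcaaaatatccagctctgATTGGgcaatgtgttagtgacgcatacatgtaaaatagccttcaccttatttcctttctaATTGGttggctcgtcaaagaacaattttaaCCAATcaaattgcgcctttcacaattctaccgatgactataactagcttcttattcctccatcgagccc
H4C11: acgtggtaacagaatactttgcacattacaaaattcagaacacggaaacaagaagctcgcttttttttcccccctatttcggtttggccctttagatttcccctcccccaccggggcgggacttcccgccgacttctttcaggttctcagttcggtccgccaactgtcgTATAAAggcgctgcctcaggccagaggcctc
H4C16: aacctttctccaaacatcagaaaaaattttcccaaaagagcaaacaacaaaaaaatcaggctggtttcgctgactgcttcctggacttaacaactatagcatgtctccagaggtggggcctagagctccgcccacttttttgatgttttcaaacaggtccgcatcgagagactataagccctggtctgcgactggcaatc
H1-10: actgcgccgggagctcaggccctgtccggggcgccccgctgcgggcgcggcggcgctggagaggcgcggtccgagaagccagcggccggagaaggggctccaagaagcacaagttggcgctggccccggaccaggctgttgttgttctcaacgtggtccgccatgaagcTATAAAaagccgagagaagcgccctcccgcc
H2AZ1: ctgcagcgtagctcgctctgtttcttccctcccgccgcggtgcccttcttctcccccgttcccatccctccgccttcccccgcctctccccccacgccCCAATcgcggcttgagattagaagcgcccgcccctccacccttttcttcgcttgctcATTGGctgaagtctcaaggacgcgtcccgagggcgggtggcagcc
The PHF20 peak covered 91 of the 235 bp between H2BC21 and H2AC20, 168 of the 200 bp shown for H4C11, all 200 bp for H4C16 and 66 bp for H1-10. Between H2BC21 and H2AC20 there was a TATAAA at each end, facing outward towards its gene, with the octamer and 3 CCAAT matches between them. The unbound H2BC8-H2AC8 interval held the octamer and 3 CCAAT matches at nearly the same spacing, with TATAAA at the H2BC8 end alone. Of the bound promoters without a partner, H4C11 and H1-10 had TATAAA in the stretch shown and H4C16 had none of the 3 motifs there, its TATAAA match lying further upstream than the stretch reaches. The unbound H2AZ1 also held TATAAA near its canonical TSS, outside the stretch shown, which begins at a TSS further upstream. The octamer and 3 CCAAT matches were thus present in both H2A-H2B intervals shown. The unbound pair was chosen as an example after its values were seen, so this says nothing about the other pairs.

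On chromosome 1, H2BC21 and H2AC20 encode core histones and are transcribed away from each other from TSSs 236 bp apart. A PHF20 peak of 246 bp at chr1:149886528-149886773 served for both. It spanned the H2BC21 TSS, with its centre 32 bp inside that gene and 268 bp upstream of H2AC20, and 113 bp of it lay in the H2BC21 coding sequence. Its width stood at percentile 8.34 of the PHF20 list, whose median peak was 599 bp wide. The next gene, H2AC21, has a window that ends 692 bp from this peak and was not bound.

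The peaks of the chromosome 6 cluster lay at H1-2, H4C8 and H4C11. H1-2, which encodes a somatic linker histone, had a 338-bp peak at chr6:26056114-26056451. This peak lay wholly inside the gene and did not reach the TSS, with its centre 188 bp downstream and 315 bp of it in the coding sequence. At H4C8, an H4 gene at the end of the first block of the cluster, the peak measured 426 bp (chr6:26285043-26285468). Its centre lay 279 bp inside the gene but 97 bp upstream of the TSS of a second annotated gene, ENSG00000289447, so the promoter to which it belongs cannot be told apart by position. H4C11, an H4 gene near the far end of the cluster, had a peak of 200 bp (chr6:27823924-27824123), centred 69 bp upstream and spanning the TSS. At 200 bp it was as narrow as any peak in the list, and its percentile was 1.81.

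Outside the clusters, H4C16 on chromosome 12 belongs to the same H4 family and lies next to H2AJ. Its 591-bp peak at chr12:14770869-14771459 was centred 33 bp upstream of the TSS and covered 216 bp of coding sequence. H1-10, which encodes the replication-independent linker histone H1.10, had a 238-bp peak at chr3:129316115-129316352 that spanned the TSS and was centred 53 bp downstream. H3-3B, 1 of the 2 genes for H3.3, was overlapped by the widest of these peaks, with 1194 bp (chr17:75784378-75785571, percentile 92.6). That peak lay within the annotated gene, and its centre was 5195 bp upstream of the TSS of the canonical transcript. The nearest TSS to its centre was that of UNK, a zinc finger RNA-binding protein gene, at 112 bp, and the nearest H3-3B TSS was 512 bp away. H3-3B therefore counted as bound through alternative start sites which it shares with another gene's promoter.

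The 7 distinct PHF20 peaks at histone genes had a median width of 338 bp, and 6 of them were narrower than the list median of 599 bp. Over the 4148 bound protein-coding genes, the median of the widest promoter peak was 682 bp. When peaks were required to be at least as wide as the list median, 1 histone gene was left, H3-3B, and 0 of the clustered genes, whereas 12.1% of all protein-coding genes still had a peak. None of the 7 peaks overlapped a PHF20L1 peak. The PHF20L1 list held 723 peaks beside 4147 for PHF20, and in the paper most PHF20 regions were bound by PHF20 alone. The lack of overlap therefore does not set these 7 peaks apart.

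**Figure D2:**
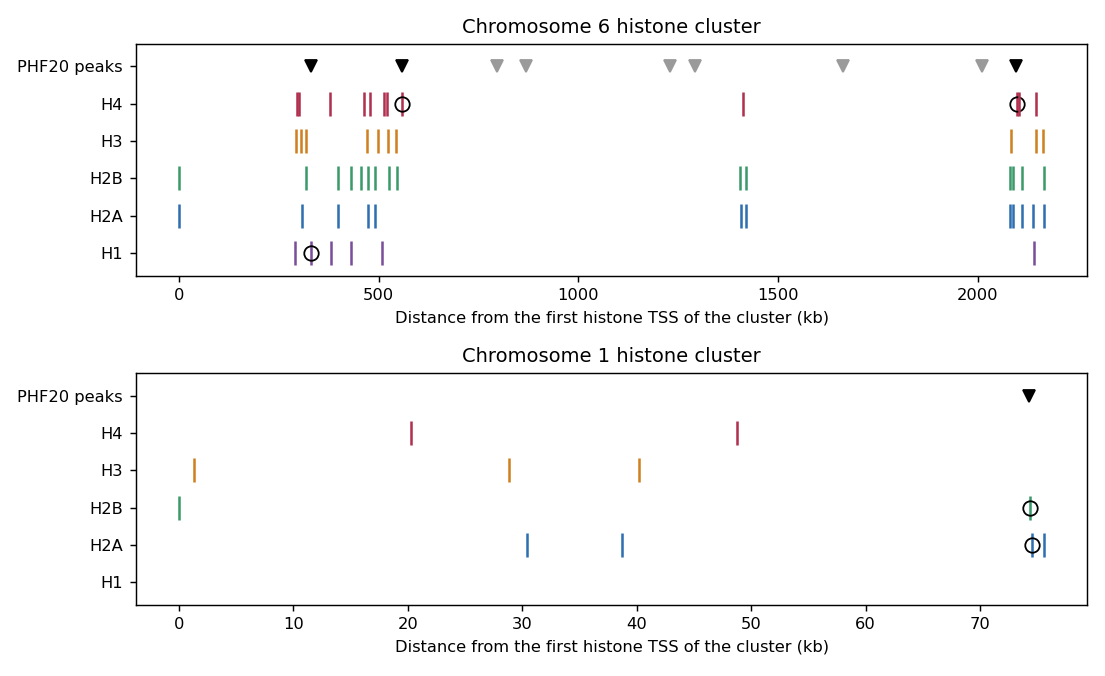
Positions of histone gene TSSs (vertical ticks, by family) and PHF20 peaks (triangles) along the chromosome 6 and chromosome 1 clusters, as the distance in kb from the first histone TSS of each. Black triangles overlap a histone promoter and gray ones do not, and circles mark bound genes; the 9 chromosome 6 peaks include 3 at histone promoters.

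The chromosome 6 cluster spans 2168409 bp (chr6:25725777-27894185), counted from the outer edges of the first and last promoter windows. Within it PHF20 had 9 peaks and PHF20L1 had 0. Of the 9 peaks, 3 were at histone promoters, 2 at promoters of other coding genes (ABT1, a basal transcription activator, and ZNF391, a zinc finger protein) and 4 at promoters of noncoding genes alone, namely HCG11, GUSBP2 with LINC00240, LARRPM with LINC00240, and GPR89P. The other coding genes of the same span were bound at 2 of 20 (10%, Wilson 95% interval 2.79% to 30.1%), beside 3 of 55 for its histone genes, and these intervals overlapped. All peaks at other genes and at noncoding RNAs were 320 to 854 bp wide, whereas the histone peaks of the span were 200, 338 and 426 bp wide. The span of the chromosome 1 cluster, 77096 bp at chr1:149811870-149888965, held the H2BC21-H2AC20 peak and no other coding gene.

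Clustered genes lay nearer to a peak than protein-coding genes at large by the median, yet a smaller share had a peak close by. The median distance from the promoter window to the nearest PHF20 peak was 43558 bp for clustered genes, 93135 bp for single genes and 99212 bp for all protein-coding genes. Many clustered genes have the same peak as their nearest, so their distances are not independent. Within 10000 bp of a peak, bound genes included, were 13.6% of the clustered genes, 22.2% of the single genes and 22.9% of all protein-coding genes. After H2AC21, the unbound clustered genes nearest to a peak were H4C12 at 6937 bp, H2AC14 at 8147 bp and H2BC14 at 8402 bp, all with the H4C11 peak as the nearest, and H3C3 at 10230 bp from the H1-2 peak.

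Histone genes that share a promoter with a partner were rarely bound, whereas other such genes often were. Many H2A and H2B genes are arranged head to head, so that a single short interval drives both, and 13 such histone pairs with TSSs at most 1000 bp apart were found, 12 of them an H2A with an H2B gene. Their TSSs were 194 to 979 bp apart, with a median of 240 bp. PHF20 was called at 1 of the 13 pairs, and so at 2 of 26 genes (7.69%, interval 2.14% to 24.1%). Among all other protein-coding genes with a divergent coding partner at this distance, 881 of 1869 were bound (47.1%, interval 44.9% to 49.4%). For genes without such a partner the shares were 6 of 67 histone genes (8.96%) and 3259 of 18071 others (18%). The 2 genes of a pair share their promoter, so these intervals are narrower than independent promoters would give.

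Of the 9 somatic replacement variants outside the clusters, 2 were bound, H1-10 and H3-3B (22.2%, interval 6.32% to 54.7%), a share near the 20.7% of all protein-coding genes. H3-5 is known mainly from testis, and without it, a choice made after the data were seen, the count was 2 of 8 (25%). The other 7 of the 9 had no PHF20 peak in their windows. H2AJ, an H2A variant, lies next to H4C16 and its window ended 1946 bp from the H4C16 peak. H2AZ1, which encodes the H2A.Z present at promoter nucleosomes, was 3171 bp from a peak at DNAJB14, and H2AX, whose product is phosphorylated at DNA breaks, was 5354 bp from a peak at the C2CD2L and DPAGT1 promoters. H3-3A, the other H3.3 gene, lay 18502 bp from the nearest peak, H2AZ2, the second H2A.Z gene, 35724 bp, and H3-5, an H3.3-like gene, 131886 bp. Of the H3.3 genes, H3-3B was thus called, through the alternative start sites near UNK, and H3-3A was not. With the canonical TSS of each gene alone, neither H3.3 gene was called. Neither H2A.Z gene was called under the main rule.

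No germline variant was called. Of the 14 outside the clusters, 0 were bound, which allows a share of up to 21.4%. With the clustered H1-1, H1-6, H2AC1 and H2BC1 the list came to 18 genes, again with 0 bound, which allows up to 16.7%. Over all protein-coding genes the share was 20.7%. As scored below, only 3.44% of the 50-base stretches in the H2AB1 window and 37.4% in that of H3-7 were unique. In those of H2AB2 and H2AB3 it was 0%. A share below that of all protein-coding genes was therefore not shown. H1-1 is a replication-dependent linker gene of restricted expression rather than a germline variant proper, and with H3-5 in its place, chosen after the data were seen, the count was again 0 of 18. The 14 germline genes outside the clusters had a low CpG content (median ratio 0.366), and among all protein-coding genes with a ratio under 0.6, 4.25% were bound. At 0.6 or above were H2BW1 (0.641) and H3-7 (0.796) outside the clusters, and the clustered H1-1 (0.68), H1-6 (0.759), H2AC1 (0.8) and H2BC1 (0.779). Over all protein-coding genes at 0.6 or above, 28.7% were bound. Whether CpG content accounts for the count of 0 was not tested. The list comprised the linker genes H1-1, H1-6, H1-7 and H1-8, the H2A genes H2AB1, H2AB2, H2AB3, H2AL1Q, H2AL3, H2AP and H2AC1, the H2B genes H2BC1, H2BW1, H2BW2, H2BN1 and H2BK1, and the H3 genes H3-4 and H3-7. Their median distance to the nearest PHF20 peak was 186206 bp. Whether these genes are transcribed in U2OS was not measured in the files used here. The 4 remaining single genes were H4C16, which was bound, and H2AC25, H2BC26 and H2BC12L, which were not.

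Histone genes are close copies of each other, and the authors discarded reads that matched more than 1 position, so each promoter was scored for how much of it single reads can reach. The score was the share of 50-base stretches of the canonical window that occur once in hg38 on either strand. Over all protein-coding genes the median was 100% and 90.1% of genes reached 90%. Among histone genes the median was 98.1% and 66 of 93 reached 90% (71%). The chromosome 6 cluster was mostly reachable, with a median of 99.4%, a minimum of 70% at H4C12 and 45 of 55 genes at 90% or more. The chromosome 1 cluster was not: its median was 16.5% and only H2AC21 passed, with 99.5%. H3C14, H3C15, H4C14 and H4C15 on chromosome 1, H2AB2 and H2AB3 on chromosome X and H2BC12L on chromosome 21 had no unique 50-base stretch at all. Over the canonical windows of these 7 genes no uniquely placed read of that length could have been retained, so the lack of a call there carries no information.

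**Figure D3:**
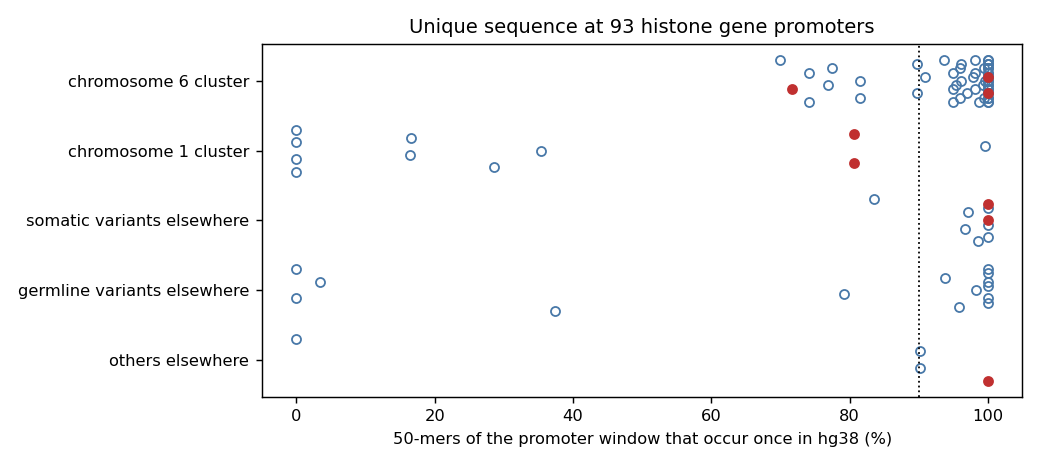
Share of 50-base stretches of each promoter window that occur once in hg38, in percent, with 1 point per histone gene in each class (vertical scatter within a class has no meaning). Filled red points are bound by PHF20 and the dotted line marks 90%; the median of the chromosome 1 cluster is 16.5% and that of the chromosome 6 cluster 99.4%.

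Restricting the comparison to promoters of at least 90% unique sequence, a choice made after the data were seen, left 5 of 66 histone genes bound (7.58%) beside 3944 of 18049 protein-coding genes (21.9%). Among the clustered genes it left 2 of 46 (4.35%), H1-2 and H4C8. The 3 clustered genes that dropped out, H2BC21, H2AC20 and H4C11, had windows of 80.7%, 80.7% and 71.6% unique sequence. Inside the peaks, 90.4% of the 50-base stretches of the H2BC21-H2AC20 peak and 49% of those of the H4C11 peak (74 of 151) were unique, while the other 5 peaks were unique throughout. Among promoters under 90%, 10.3% of all protein-coding genes and 3 of 27 histone genes (11.1%) were bound. The loss of reads to repeated sequence was not measured, since the lists hold no reads.

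Clustered histone promoters differed in sequence from most promoters that PHF20 occupied. In the stretch that begins 250 bp before and ends 50 bp after the canonical TSS, the median GC content was 43.9% for clustered genes and 63.1% for the somatic variants, beside 63.5% for all protein-coding genes and 65.1% for those with a PHF20 peak. CpG content, as the ratio of observed to expected CpG, had a median of 0.757 for clustered genes, 0.96 for somatic variants and 0.366 for the germline variants outside the clusters. It was 0.776 over all protein-coding genes and 0.888 over those bound by PHF20. The 8 bound histone genes had a median of 0.87, and the 7 bound at the canonical TSS, without H3-3B, had 0.869. Clustered promoters were therefore poor in G and C, yet near the usual range for CpG relative to that base content.

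Short sequence motifs were then counted in the same windows on both strands. TATAAA was present at 68.2% of clustered histone promoters, 9.72% of all coding promoters and 3.95% of those with a PHF20 peak. CCAAT stood at 86.4% of clustered promoters, including all clustered H1, H2A, H2B and H3 genes and 35.7% of the H4 genes, beside 36.1% of all. The octamer ATTTGCAT was found at 75% of clustered H2A and 82.4% of clustered H2B promoters, at none of the clustered H1, H3 or H4 promoters and at 1.62% of all. ACTTCCGG, an ETS-like sequence found at 6.14% of all promoters and 16.5% of PHF20-bound ones, was present at 1 of the 93 histone promoters (1.08%). CACGTGAC, an E-box sequence at 3.46% of all and 6.56% of bound promoters, was at 0 of them. Over all protein-coding genes, 8.42% of promoters with TATAAA and 22% of those without it were bound by PHF20. Among histone genes the order was the opposite, with 6 of 55 bound with TATAAA (10.9%) and 2 of 38 without it (5.26%), while clustered histone genes followed the order of all genes, with 3 of 45 (6.67%) and 2 of 21 (9.52%). With so few bound genes, neither order was distinguishable from no difference. The 6 bound histone genes with TATAAA included H3-3B, whose peak was centred 5195 bp from the canonical TSS scored here. Of the 7 histone genes bound at the canonical TSS, 5 had TATAAA.

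CpG content was related to PHF20 binding over all genes, so histone genes were also set beside genes of like CpG ratio. Below a ratio of 0.6, 4.25% of all protein-coding genes and 1 of 27 histone genes (3.7%) were bound, the histone gene being H4C16. At 0.6 or above, 28.7% of all genes and 7 of 66 histone genes (10.6%) were bound, and of the 53 clustered genes in this range 5 were bound. By class of 0.2, the share over all genes rose from 2.16% in the lowest to 35.7% at a ratio of 1.0 or more, whereas for histone genes 1 of 27 was bound between 0.6 and 0.8 (3.7%, Wilson 95% interval 0.657% to 18.3%), 5 of 25 between 0.8 and 1.0 (20%, interval 8.86% to 39.1%) and 1 of 14 at 1.0 or more (7.14%, interval 1.27% to 31.5%). Between 0.8 and 1.0 the interval held the 30.4% of all genes, and 2 of the 5 bound genes share a peak, so a lower share was not distinguishable there. The gene bound at 1.0 or more, also among the 7 bound at 0.6 or above, was H3-3B. Its ratio was scored at the canonical TSS, 5195 bp from the centre of its peak.

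**Figure D4:**
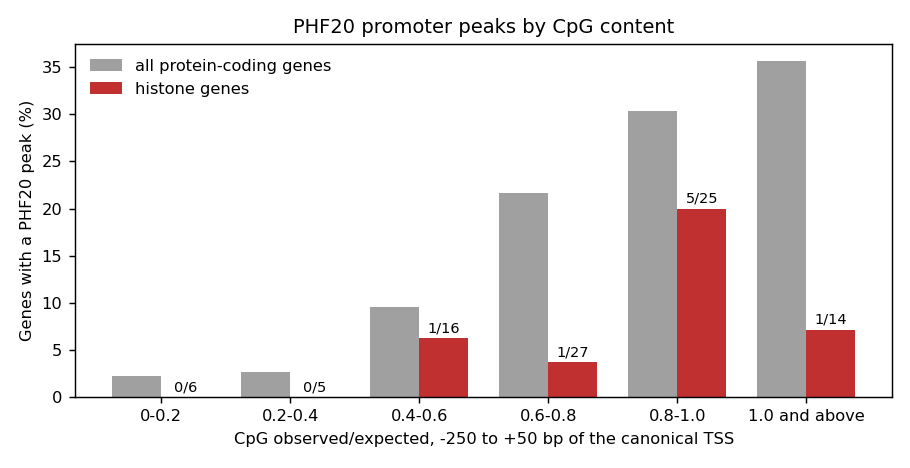
Share of genes with a PHF20 promoter peak, in percent, by the ratio of observed to expected CpG in the stretch from 250 bp before to 50 bp after the canonical TSS, for all protein-coding genes (gray bars) and histone genes (red bars, with bound and total counts). In the class from 0.8 to 1.0, 30.4% of all genes and 20% of histone genes (5 of 25) were bound.

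A list of 40 genes was counted for comparison, of which 37 have products that transcribe, process, carry or deposit histones or their mRNAs and 3 encode histone variants named outside the families above (CENPA, MACROH2A1 and MACROH2A2). PHF20 was called at 16 of them (40%, Wilson 95% interval 26.3% to 55.4%), beside 20.7% of all protein-coding genes and 8.6% of histone genes, and PHF20L1 at 3 (7.5%, interval 2.58% to 19.9%). Without the 3 variant genes, PHF20 was called at 14 of 37 (37.8%, interval 24.1% to 53.9%). The list was not set beside genes of like CpG ratio. Over all protein-coding genes with a ratio of 0.6 or above, 28.7% were bound, a share inside both PHF20 intervals. The widest PHF20 peak at each of the 16 had a median width of 550 bp, from 269 to 1315 bp. Among the genes for histone mRNA processing and decay, peaks stood at SLBP, the stem-loop binding protein (531 bp), ZNF473, a component of the U7 snRNP pathway (302 bp), CPSF3, the endonuclease that cuts histone pre-mRNA (834 bp), and UPF1, a helicase for mRNA decay (411 bp). NPAT and CASP8AP2, which act in histone gene transcription, had no peak, nor had LSM10 and LSM11 of the U7 snRNP.

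Among the chaperones, peaks were called at HIRA, which deposits H3.3 (1315 bp), ASF1A, which carries H3-H4 (353 bp), RBBP4, a subunit of the CAF-1 assembly factor (683 bp), both FACT subunits SUPT16H (568 bp) and SSRP1 (694 bp), TONSL, which binds newly made H3-H4 on replicated DNA (659 bp), the helicase subunit MCM2 (281 bp) and the importin IPO4 (269 bp). No peak was called at CHAF1A and CHAF1B, the other CAF-1 subunits, at ASF1B, NASP, HJURP, NAP1L1 or NAP1L4, or at the remaining H3.3 deposition genes UBN1, UBN2, CABIN1, DAXX and ATRX. The H2A.Z exchange factors SRCAP (340 bp) and VPS72 (699 bp) were bound, whereas EP400 and ANP32E were not. Of the 3 variant genes, CENPA, the centromeric H3 (309 bp), and MACROH2A1, the macroH2A found on the inactive X chromosome (1129 bp), were bound and MACROH2A2 was not. The CENPA peak lay 21663 bp from the canonical TSS and counted through an alternative TSS, whereas the peaks of the other 15 genes were centred within 622 bp of theirs. Those of SLBP, TONSL and IPO4 lay wholly upstream of the annotated gene. Whether any of these peaks also overlapped the promoter of another gene was not examined. PHF20L1 peaks occurred at SLBP (251 bp), HIRA (293 bp) and SSRP1 (429 bp), which all carried PHF20 too.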

How the data were processed

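HA ChIP-Seq of tagged PHF20 and PHF20L1 in U2OS cells was used as deposited, in the form of 1 final peak list per protein. Per the paper's methods and the labels, the authors aligned reads with Bowtie 1.1.2 to hg38 and kept those at unique positions without duplicates. Peaks were called over input by MACS2 2.2.7.1 and those in blacklisted regions were discarded. Peaks called in the replicate with the best signal were kept where they overlapped peaks of the remaining replicates. The p-value cut-off for calling was looser in those replicates than in the best one. The authors dropped 1 PHF20 replicate that failed. The deposited values are peak positions (start and end), without score, height or read depth.

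Members, classes and lists were chosen with earlier results of these data known, so no p-value is given, and counts are set beside all protein-coding genes. Positions are on hg38, counted from 1. Genes are from GENCODE release 44 (the authors used release 35), and genes of chromosome M were left out. Promoters, the bound rule and divergent pairs are defined in the report. Clusters were groups of at least 4 histone genes on chromosomes 6 and 1 linked by gaps of at most 1000000 bp between TSSs, so H3-4, H2AC25 and H2BC26 on chromosome 1 counted as single. Intervals are Wilson 95% intervals, and a count of 0 is given with the share that 3 counts would make. Unique 50-base stretches were counted by exact match over chromosomes 1 to 22, X, Y and M. Genes named are all bound histone genes, the somatic and germline variants, the 5 unbound clustered genes nearest a PHF20 peak and the histone supply genes; the H2BC8-H2AC8 pair, and the unbound supply genes named, were chosen as examples after their values were seen. The result for part of the somatic variants is not reported here. Counts were repeated with other windows, TSS sets, overlap rules, peak widths, cluster definitions and a stretch of 36 bases. The software was Python 3.11.15 with numpy 2.4.6, scipy 1.17.1, numba 0.67.0, pysam 0.24.0 and matplotlib 3.10.9, and samtools 1.23.1. Overlap and uniqueness steps were tested on simulated data.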

Additional observations from a re-analysis of the deposited data

How the results depend on the processing

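Peak width changed the counts most. When only peaks of the list's median width or more were counted, PHF20 was called at 1 histone gene (H3-3B) in place of 8, at 0 clustered genes in place of 5 and at 1 single gene in place of 3. Over all protein-coding genes the share was then 12.1% in place of 20.7%. With peaks of at least 300 bp, 4 histone genes (4.3%) and 2 clustered genes (H1-2 and H4C8) were left, beside 18.6% of all protein-coding genes. With windows of at least 90% unique sequence, an alternative chosen after seeing the data, 5 of 66 histone genes and 2 of 46 clustered genes were bound. Among all protein-coding genes with such windows 21.9% were. The cause of these changes was not tested. Without H3-5, 2 of 8 somatic variants were bound, and with H3-5 in place of H1-1, 0 of 18 germline variants were; both groupings were chosen after seeing the data. Under the other overlap rules, TSS sets, windows and cluster definition, 6 to 9 histone genes were bound, beside 16.8% to 21.4% of all protein-coding genes. H3-3B was lost with the canonical TSS alone, with the peak centre in the window, with at least 50% of the peak in it, and with each peak given to its nearest coding TSS, which also removed H2AC20; H2AC21 was gained with 2500 bp on either side. PHF20L1 was called at 0 histone genes under every alternative run, beside 2.11% to 3.94% of all protein-coding genes. With stretches of 36 bases, 59 histone genes in place of 66 reached 90% unique sequence. No paired analysis was possible because each list is a single combination of replicates without separate values, and no replicate could be left out for the same reason. Narrow peaks cannot be weighed by signal, since these lists hold no heights.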

Other observations

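The span of the chromosome 6 histone cluster also holds 98 tRNA genes of the RefSeq annotation. Of its 9 PHF20 peaks, 2 lay within 500 bp of a tRNA gene, the peak at HCG11 at 412 bp from TRL-CAG1-7 and the peak at LARRPM and LINC00240 at 257 bp from TRI-TAT2-2. None of the 3 histone peaks of the span was within this distance, the nearest being the H4C8 peak at 1058 bp from TRX-CAT1-2. The share of all PHF20 peaks this near to a tRNA gene was not counted, so whether these counts depart from it was not tested.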
